A study of Mus musculus with 2 samples.

Results

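The genes described here are the 8 writers and erasers of DNA methylation named Dnmt1, Dnmt3a, Dnmt3b, Dnmt3l, Uhrf1, Tet1, Tet2 and Tet3, chosen by symbol from the gene table of a droplet single-cell RNA sequencing study of mouse embryonic stem cells. All 8 were among the 32285 genes of both libraries. The study asked whether crosstalk of FGF, TGF-beta and WNT signalling limits what BMP4 can do in these cells. Cells of R1, an embryonic stem cell line that the labels enter as the strain, were seeded in N2B27, a medium without serum, and taken at 72 hours. The group called LB received BMP4 with LIF, the cytokine that keeps these cells self-renewing, and grew on gelatin. The group called LBPXRS received the same factors together with the MEK inhibitor PD0325901 (FGF to ERK signalling), the tankyrase inhibitor Xav939 (WNT signalling), the type I receptor inhibitor SB431542 (NODAL and activin signalling) and a compound the labels write as Resorcyclic lactone without giving its target, and it grew on fibronectin. Medium and substrate therefore cannot be told apart. Each condition was 1 library, so differences have no replicate check and no test across samples could be made. Intervals are exact 95% intervals and cover counting error only.

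Methylation of cytosine in CpG dinucleotides is written by the DNMT enzymes. DNMT3A and DNMT3B place it on unmethylated DNA, and DNMT3L, which has no catalytic activity of its own, binds and stimulates them. DNMT1 copies the mark onto the new strand after replication, where UHRF1 recognises the half-methylated DNA and recruits it. The TET enzymes oxidise 5-methylcytosine to 5-hydroxymethylcytosine and beyond, which leads to its loss by dilution or by base excision. Naive mouse embryonic stem cells are known for low global methylation when MEK is inhibited, and the step from naive to formative pluripotency is known for high Dnmt3a and Dnmt3b. Neither methylation nor protein was measured here.

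LB gave 1783 kept cells with 45490517 UMIs (unique molecular identifiers, 1 for each captured RNA molecule) and LBPXRS 2705 kept cells with 51832444 UMIs, at medians of 25418 and 19058 UMIs a cell. The 2 libraries shared 8 cell barcodes among kept cells. Levels are CPM, the UMIs of a gene in a library for each 1000000 UMIs of its kept cells. Because the chemistry captures the 3′ end and counts each molecule once, levels of different genes were compared without dividing by length. The labelled cell type was checked against 4 naive pluripotency markers, Klf4, Esrrb, Nanog and Zfp42, in cells thinned to 5000 UMIs. None of the 4 was found in 667 of 1733 LB cells (38.5%) and in 86 of 2621 LBPXRS cells (3.28%). Clusters of LB included cells like primitive streak, later mesoderm and trophoblast, so the LB sums below mix cell classes that LBPXRS did not form as named clusters.

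The genes lie on 7 chromosomes of GRCm38. Dnmt3a (chr12:3806007-3914443, plus strand), Dnmt3b (chr2:153649450-153687730, plus), Dnmt3l (chr10:78041947-78063622, plus) and Tet2 (chr3:133463679-133545139, minus) are the ones whose levels differed most between libraries, and their start regions are shown so that their CpG content can be read against what the enzymes act on. Each line gives the 300 bases from 250 before to 50 after the RefSeq transcript start nearest to the start of the GENCODE gene, on the gene's strand (RefSeq, GRCm38.p6), with every CpG in capitals.
Dnmt3a, chr12:3806730-3807029, plus strand: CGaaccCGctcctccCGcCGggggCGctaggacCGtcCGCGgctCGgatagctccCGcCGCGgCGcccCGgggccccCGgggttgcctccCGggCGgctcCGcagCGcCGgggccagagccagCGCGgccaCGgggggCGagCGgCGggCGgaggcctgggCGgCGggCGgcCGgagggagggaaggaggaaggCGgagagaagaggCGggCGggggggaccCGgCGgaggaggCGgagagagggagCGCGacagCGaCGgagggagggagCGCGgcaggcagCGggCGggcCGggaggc
Dnmt3b, chr2:153649199-153649498, plus strand: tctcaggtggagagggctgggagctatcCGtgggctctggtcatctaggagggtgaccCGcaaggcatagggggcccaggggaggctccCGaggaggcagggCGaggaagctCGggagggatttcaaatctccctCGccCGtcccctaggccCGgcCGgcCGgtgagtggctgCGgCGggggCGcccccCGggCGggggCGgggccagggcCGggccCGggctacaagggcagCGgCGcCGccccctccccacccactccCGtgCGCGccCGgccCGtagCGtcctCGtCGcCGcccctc
Dnmt3l, chr10:78042037-78042336, plus strand: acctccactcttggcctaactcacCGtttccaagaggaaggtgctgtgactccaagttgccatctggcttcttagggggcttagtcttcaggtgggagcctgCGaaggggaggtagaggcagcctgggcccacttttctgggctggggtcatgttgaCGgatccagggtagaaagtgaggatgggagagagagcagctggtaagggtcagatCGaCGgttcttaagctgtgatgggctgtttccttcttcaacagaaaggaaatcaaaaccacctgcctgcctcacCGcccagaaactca
Tet2, chr3:133544341-133544640, minus strand: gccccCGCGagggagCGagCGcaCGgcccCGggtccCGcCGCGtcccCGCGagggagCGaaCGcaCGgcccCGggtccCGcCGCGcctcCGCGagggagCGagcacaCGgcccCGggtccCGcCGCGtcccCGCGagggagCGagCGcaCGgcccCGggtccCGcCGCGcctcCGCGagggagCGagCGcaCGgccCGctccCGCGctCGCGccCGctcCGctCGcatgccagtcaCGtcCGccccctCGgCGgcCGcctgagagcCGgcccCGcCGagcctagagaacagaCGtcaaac

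The Tet2 window held 57 CpGs, more than 99.8% of the 32851 RefSeq start windows of this length, whose median was 7. Dnmt3a held 46 (more than 98.4% of windows) and Dnmt3b 30 (more than 88.3%). Dnmt3l held 6 CpGs, more than 43.6% of windows, and was the CpG-poor one of the 4. The genes that were lower in LBPXRS therefore had start windows of both kinds. Of the members not shown, the nearest windows of Tet3, Tet1, Uhrf1 and Dnmt1 held 22, 17, 12 and 2 CpGs. The count depended on the start: other windows held 12 and 33 CpGs at Dnmt1 and 33 at Uhrf1. At Dnmt3a the others held 47 and 18, and at Dnmt3l 4 and 3. Both strands of each window were searched for 5 short strings, none of which contains another. TTTGGCGC and TTTCCCGC (E2F type) occur in 0.514% and 1.07% of all windows, TCAAGGTCA (ESRRB type) in 0.423%, CCACACCC (KLF type) in 3.56% and ATCAAAG (TCF type) in 3.73%. None of the 4 windows shown held any of them. Among the 15 windows of the 8 genes, TTTGGCGC stood in 1 Dnmt1 window and CCACACCC in 1 Dnmt3l window, both away from the nearest start. Counts from the 3′ end do not tell which of several starts was used.

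All 3 Dnmt3 genes, which serve methylation of new sites, were lower in LBPXRS, and Tet2 was higher. Past 2-fold, among genes that reached 10 CPM in LB or LBPXRS, 3 members were lower, Dnmt3a, Dnmt3b and Dnmt3l, and 1 was higher, Tet2, of 7 members that reached that level. Over all 7661 genes at that level, 10.4% were at least 2-fold lower (794 genes) and 7.98% at least 2-fold higher (611 genes). The share of lower calls among the members, 3 of 7, stood above that background, and that of higher calls, 1 of 7, rests on Tet2 alone, which fell below 2-fold in 4 of 13 alternatives. Totals were scaled to CPM; with TMM scaling the whole table gave 596 lower and 781 higher genes, and with median-of-ratios size factors 563 and 814, while the members gave 3 and 1 under both. Log2 ratios are of LBPXRS to LB after adding 1 CPM, which understates the change of low genes, and the median of all 12618 genes with a mean of at least 1 CPM was -0.14. TMM scaling moved that median by 0.14, to 0.00, so values are best read against it.

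**Figure D1:**
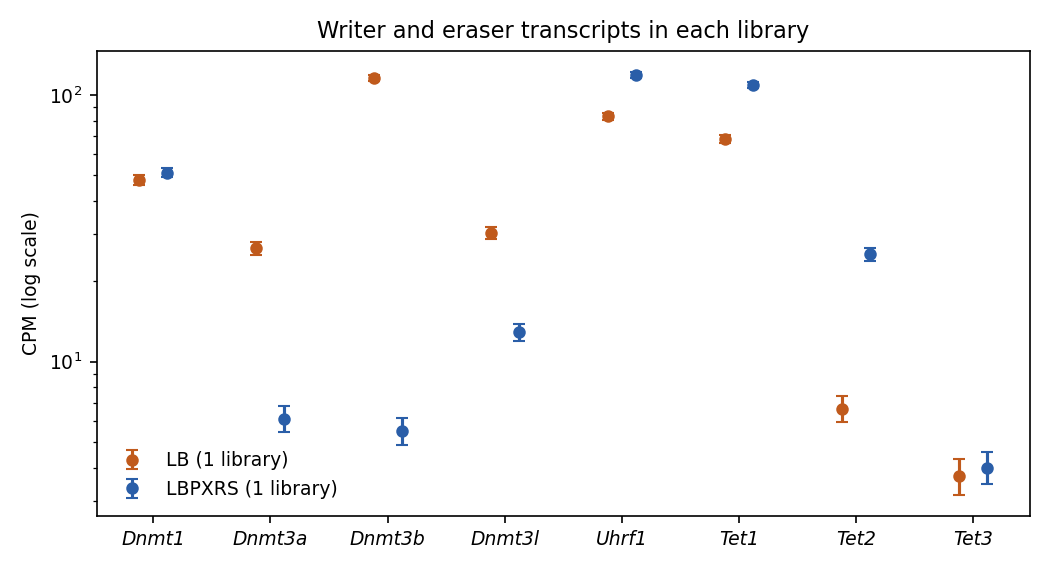
CPM of the 8 genes on a log axis in LB and LBPXRS, 1 library each; bars are exact 95% Poisson intervals, which cover counting error only. Dnmt3b stands at 116 and 5.48 CPM, Tet2 at 6.66 and 25.2 CPM, and the points of Dnmt1 and of Tet3 lie close together.

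Dnmt3b, the methyltransferase most abundant in LB, had 5265 UMIs there and 284 in LBPXRS. That is 116 CPM (112.6 to 118.9) against 5.48 CPM (4.86 to 6.15), and the LB level was 21.1-fold that of LBPXRS (18.7 to 23.9). In LB it was above every other member, and in LBPXRS it stood beside Dnmt3a and above Tet3 alone. Dnmt3a, the other catalytic enzyme for new sites, had 1211 and 316 UMIs, or 26.6 CPM (25.1 to 28.2) and 6.10 CPM (5.44 to 6.81). Its LB level was 4.37-fold higher (3.85 to 4.96). Dnmt3l, the cofactor, had 1379 and 667 UMIs, or 30.3 CPM (28.7 to 31.96) and 12.9 CPM (11.9 to 13.9), with LB 2.36-fold higher (2.15 to 2.59). Over all cells the cofactor was thus the least reduced of the 3, an order that did not hold among Klf4-positive cells, where the Dnmt3a ratio was the smallest. Summed, the Dnmt3 genes held 173 CPM in LB and 24.4 CPM in LBPXRS, a 7.06-fold difference (6.66 to 7.502), and Dnmt3l made up 17.6% of that sum in LB and 52.6% in LBPXRS. The log2 ratios were -4.17 for Dnmt3b, -1.96 for Dnmt3a and -1.18 for Dnmt3l, and with TMM scaling -4.03, -1.82 and -1.03.

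The maintenance pair did not share that difference. Dnmt1, the copying enzyme, had 2185 UMIs in LB and 2644 in LBPXRS, or 48.0 CPM (46.04 to 50.1) and 51.0 CPM (49.1 to 52.99), a ratio of 1.06 (1.003 to 1.124). Its log2 ratio of 0.09 (0.24 with TMM scaling) changed sign in 1 of 13 alternatives, so no direction is given. Uhrf1, which brings DNMT1 to half-methylated DNA, had 3781 and 6164 UMIs, or 83.1 CPM (80.5 to 85.8) and 119 CPM (116 to 122). LBPXRS was 1.43-fold higher (1.37 to 1.49), below the 2-fold rule and with the same sign in all 13 alternatives. The make-up of the catalytic DNMT transcripts was therefore not the same: of the UMIs of Dnmt1, Dnmt3a and Dnmt3b, Dnmt1 held 25.2% (24.3 to 26.2) in LB and 81.5% (80.1 to 82.8) in LBPXRS. The sum of those 3 genes was 190 CPM in LB and 62.6 CPM in LBPXRS.

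Among the erasers, Tet1, the main TET gene of embryonic stem cells, had 3100 UMIs in LB and 5631 in LBPXRS. That is 68.1 CPM (65.8 to 70.6) against 109 CPM (106 to 112), 1.59-fold higher in LBPXRS (1.53 to 1.67). The direction held in 11 of 13 alternatives and turned with naive-like LB cells alone and with Esrrb-positive cells, at log2 ratios of -0.16 and -0.22. Tet2, which lacks the CXXC DNA-binding domain that Tet1 carries, had 303 and 1307 UMIs, or 6.66 CPM (5.93 to 7.45) and 25.2 CPM (23.9 to 26.6), 3.79-fold higher in LBPXRS (3.34 to 4.30). Tet2 was higher in all 13 alternatives but below 2-fold in 4 that keep naive-type cells, at log2 ratios of 0.69 to 0.83. Tet2 made up 8.48% of TET transcripts in LB and 18.3% in LBPXRS. Tet3, known from the oocyte and from differentiated cells, was the lowest member in both libraries, with 169 UMIs (3.72 CPM, 3.18 to 4.32) and 207 UMIs (3.99 CPM, 3.47 to 4.58). The Tet3 intervals overlapped. The TET sum was 78.5 CPM in LB and 138 CPM in LBPXRS, a 1.76-fold difference (1.69 to 1.83).

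In order of level, LB ran Dnmt3b, Uhrf1, Tet1, Dnmt1, Dnmt3l, Dnmt3a, Tet2 and Tet3, and no counting intervals of neighbours overlapped, the closest being Dnmt3l (28.7 to 31.96 CPM) and Dnmt3a (25.1 to 28.2 CPM). LBPXRS ran Uhrf1, Tet1, Dnmt1, Tet2, Dnmt3l, Dnmt3a, Dnmt3b and Tet3, and there the intervals of Dnmt3a and Dnmt3b overlapped. Spread between cultures is unknown, so an order by counting error alone may not hold in another culture.

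Shares of cells gave the same picture at equal depth. After thinning to 5000 UMIs, which left out 50 LB and 84 LBPXRS cells that were shallower, 520 of 1733 LB cells had a Dnmt3b UMI (30.01%, 27.9 to 32.2), against 72 of 2621 LBPXRS cells (2.75%, 2.16 to 3.45). Without thinning it was found in 61.2% of LB and 9.65% of LBPXRS cells. Dnmt3a was found in 10.7% and 3.28% of thinned cells, and Dnmt3l in 11.7% and 5.95%. All 3 Dnmt3 genes were thus found in fewer LBPXRS cells. Tet2 went the other way, with 51 LB cells (2.94%, 2.20 to 3.85) against 329 from LBPXRS (12.6%, 11.3 to 13.9). Uhrf1 was found in 31.5% and 43.2% and Tet1 in 24.9% and 40.8% of cells, while Dnmt1 was found in 22.8% of either library's cells. Transcripts were spread unevenly for 1 gene above all: the variance of thinned Dnmt3b counts over LB cells was 2.48 times their mean, with up to 10 UMIs in a cell, and that of Dnmt3l was 1.44 times its mean. For the other 6 members in LB it was 0.986 to 1.24 times the mean, where independent sampling gives a value near unity. Thinned to 10000 UMIs, LB cells gave 3.95 for Dnmt3b, 1.74 for Dnmt3l and 1.70 for Tet1. In LBPXRS the Dnmt3b ratio was 1.00, but with so few UMIs it lies near unity for most spreads and cannot show an even one. The share of cells with Dnmt3b lay between 1.86% and 3.69% in the 4 LBPXRS clusters of usual depth. No cell class that should lack Dnmt3b was identified in LBPXRS, so the part of free RNA in these low shares was not tested.

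Clusters, formed in each library without the 8 genes, showed where in LB the members were high. Cluster 0, naive pluripotent-like by 10 of 12 markers (600 cells), had Tet1 at 117 CPM (111.8 to 122.2), Dnmt3l at 62.4 CPM (58.7 to 66.3), Tet2 at 13.4 CPM (11.7 to 15.3) and Dnmt3b at 76.8 CPM (72.7 to 81.1). Cluster 7 (266 cells), led by Pim2, Fgf5, a formative marker, and others including Pou3f1, stayed without a name, with 4 of 12 formative markers raised. There Dnmt3b reached 398 CPM (384 to 413) and Dnmt3a 50.2 CPM (45.2 to 55.6), both the highest of any cluster in either library. The same cells had Dnmt3l at 9.05 CPM (6.997 to 11.5), Tet1 at 36.5 CPM (32.2 to 41.1) and 5 Tet2 UMIs in all. Cluster 7 held 14.9% of LB cells and 2905 of the 5265 Dnmt3b UMIs. Without these cells, an alternative chosen after seeing the data, the log2 ratio of Dnmt3b was -3.28, and the LB level remained above that of LBPXRS.

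The LB cells with mesoderm markers had the least Dnmt3l. Cluster 2, primitive streak-like (263 cells, T at 560 CPM), had 9 Dnmt3l UMIs, or 1.54 CPM (0.704 to 2.92), and cluster 3, later mesoderm-like (354 cells, Hand1 at 358 CPM), had 18, or 2.09 CPM (1.24 to 3.31). Dnmt3b stood at 59.2 and 37.4 CPM in these clusters and Tet1 at 26.3 and 17.7 CPM. Dnmt3a did not go the same way as Dnmt3l: it was 22.2 and 30.1 CPM, at or above its 21.9 CPM in naive-like cluster 0. Cluster 4, trophoblast-like (61 cells), had Dnmt3b at 103 CPM (89.3 to 117.5) with Dnmt3l at 6.33 CPM (3.37 to 10.8) and 1 Tet2 UMI. Its name depends on the clustering: at a resolution of 1, a cluster of 60 cells with nearly the same Dnmt3b level, 104 CPM, was tied between trophoblast and primitive endoderm markers and stayed without a name. A second naive-like cluster, number 5 (61 cells, led by Slc7a3, Pmel and Spp1, median 10944 UMIs), had the highest levels of Tet1 and Dnmt3l of any cluster, 217 CPM (184 to 253) and 140 CPM (114 to 170). Its Dnmt3b was 99.6 CPM (78.2 to 124.98), which overlapped the interval of cluster 0, so both naive-like clusters held Dnmt3l together with Dnmt3b, while cluster 7 held much Dnmt3b with little Dnmt3l. It just met the naming threshold, with a marker median log2 ratio of 1.00 over the rest of its library. Cluster 1 (159 cells, led by S100a13 and Calb2, no name) had Tet1 at 92.6 CPM with Dnmt3a at 8.85 CPM. Its Dnmt3b, 27.3 CPM, was the lowest of the LB clusters described here. Cluster 6 held 19 cells of low depth and is not described. Dnmt1 and Uhrf1 were the flattest members, ranging from 36.5 to 76.7 CPM and from 54.4 to 102 CPM. The Uhrf1 range and the lowest Dnmt3b depended on the clustering. At a resolution of 1, Uhrf1 ranged from 23.5 to 104 CPM and Dnmt1 from 34.8 to 76.7 CPM. An unnamed cluster there (97 cells, T at 620 CPM) had the lowest Uhrf1 and the lowest Dnmt3b, 13.2 CPM. Dnmt3b was 104 CPM in another unnamed cluster (126 cells, T at 476 CPM) and 37.4 CPM in a streak-like one (153 cells, T at 279 CPM).

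**Figure D2:**
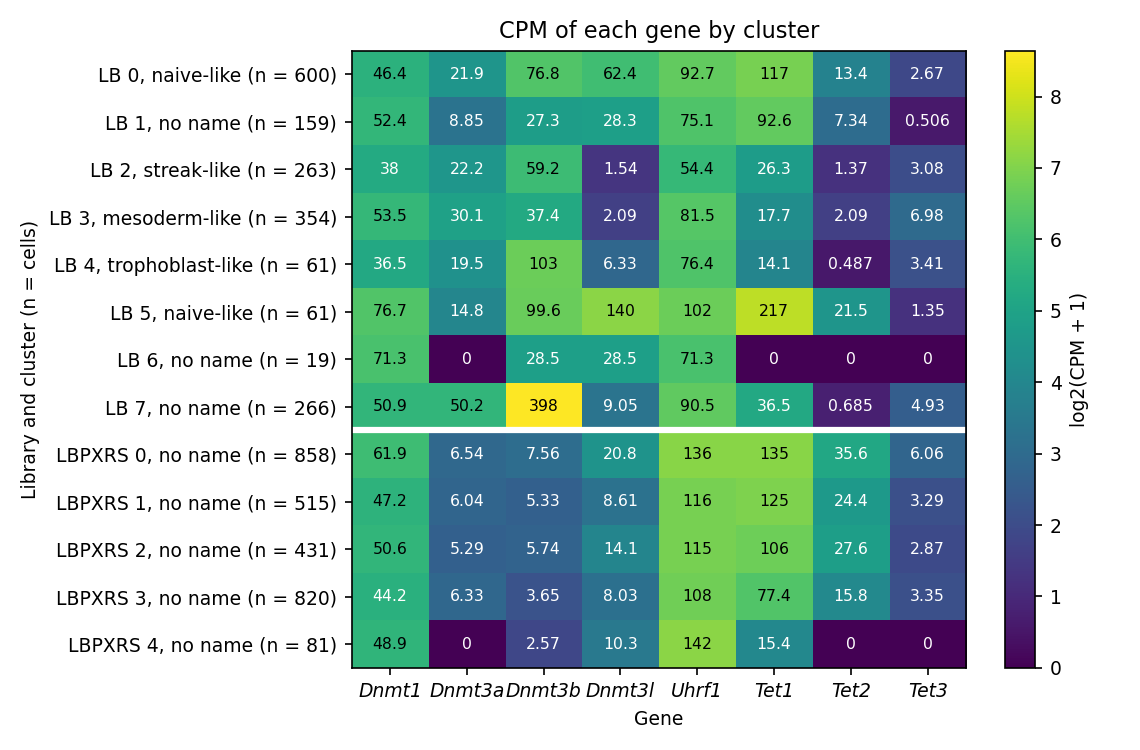
CPM of the 8 genes (columns) in the 8 LB and 5 LBPXRS clusters (rows, n = cells), written in each cell and coloured by log2(CPM + 1); the white line parts the libraries. Dnmt3b peaks at 398 CPM in LB cluster 7, Dnmt3l at 140 CPM in LB cluster 5, and Dnmt3b is at most 7.56 CPM in LBPXRS.

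At the Leiden resolution of 0.5 used throughout, no LBPXRS cluster met the naming rule. At a resolution of 1, a cluster of 365 cells was primitive endoderm-like, by 3 of 12 markers. That name is weak. Over the whole library Gata4, Gata6, Dab2 and Foxa2 of the same list had 55, 34, 35 and 8 UMIs. LB had 121, 170, 112 and 23 of them. Col4a1 and Col4a2 of that list went the other way, at 1863 and 1128 UMIs against 431 and 203 in LB. Over the 4 clusters of usual depth Dnmt3b ranged from 3.65 to 7.56 CPM and Dnmt3a from 5.29 to 6.54 CPM. Cluster 0 (858 cells, led by Krt8 and Krt18) had the highest Dnmt3l, 20.8 CPM (18.6 to 23.3), Tet1, 135 CPM (129 to 141), and Tet2, 35.6 CPM (32.6 to 38.8). Cluster 3 (820 cells, led by Gata2 and Dusp4) had the lowest of the 4 for the same genes, 8.03 CPM (6.72 to 9.52), 77.4 CPM (73.2 to 81.8) and 15.8 CPM (13.9 to 17.8). Cluster 0 had the highest level of all 8 members among the 4, and cluster 3 the lowest of Dnmt1, Dnmt3b and Uhrf1 as well. In cluster 3 the Zfp42 level was also the lowest of the 5 clusters, 373 CPM against 598 CPM in cluster 0. Cluster 4 (81 cells, median 3382 UMIs) had too few UMIs for the low members, with 0 for Dnmt3a, Tet2 and Tet3.

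Cells positive for single markers were compared with the negative cells of the same library at 5000 UMIs each. In LB, cells with Zfp42, a naive marker (869 positive, 864 negative), had Dnmt3l at 53.2 CPM (46.5 to 60.5) against 7.87 CPM (5.45 to 11.0). Tet1 stood at 102 CPM (92.9 to 112.1) against 25.7 CPM (21.1 to 30.9), and Tet2 at 11.7 CPM (8.74 to 15.4) against 1.16 CPM (0.376 to 2.70). All 3 passed 2-fold higher, where 5.44% of 7746 genes did, and none of the 7 members that reached 10 CPM passed 2-fold lower, where 9.81% did. Dnmt3b was 81.2 CPM in the positive and 144 CPM in the negative cells. Cells with Pou3f1, a formative marker (144 positive), showed the reverse pattern for 1 writer: Dnmt3b was 335 CPM (294 to 380) against 92.6 CPM (86.1 to 99.6), the single member of 6 past 2-fold higher, where 3.33% of 7620 genes were, and 0 were past 2-fold lower, where 2.90% were. Dnmt3a was 44.4 CPM (30.4 to 62.7) against 22.9 CPM (19.7 to 26.5) in the same comparison.

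Cells with T, the streak gene brachyury (327 positive), had Dnmt3l at 8.56 CPM (4.68 to 14.4) against 35.7 CPM (31.4 to 40.4) and Tet1 at 23.9 CPM (17.0 to 32.6) against 73.4 CPM (67.2 to 80.0). These were the members past 2-fold lower, 2 of 6, where 4.21% of 7679 genes were, and 0 were past 2-fold higher, where 4.68% were. Hand1, a mesoderm and trophoblast gene (233 positive), gave the same 2 genes, Dnmt3l at 4.29 CPM against 34.7 CPM and Tet1 at 19.7 CPM against 70.9 CPM, where 5.04% of 7894 genes were at least 2-fold lower, and no member was past 2-fold higher, where 7.92% were. Mesp1-positive cells (137), of nascent mesoderm, had 17 Dnmt3b UMIs, or 24.8 CPM (14.5 to 39.7), against 120 CPM (112.8 to 128.2). Dnmt3b was thus low in Mesp1-positive cells and intermediate in T-positive cells, where it was 70.3 CPM (58.1 to 84.4). Markers share cells, so these comparisons are not independent of each other.

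**Figure D3:**
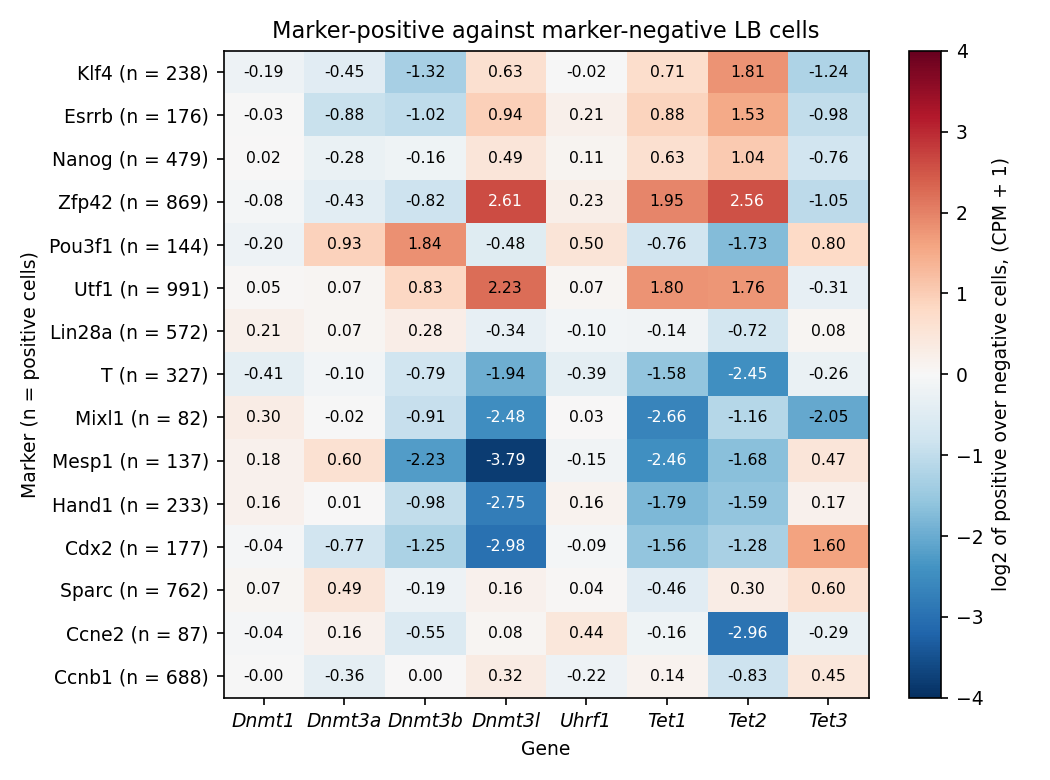
Log2 ratio of (CPM + 1) in marker-positive over marker-negative LB cells for 15 markers (rows, n = positive cells) and the 8 genes (columns), thinned to 5000 UMIs a cell. Dnmt3l ranges from 2.61 for Zfp42 to -3.79 for Mesp1 (1 UMI in the positive cells), while Dnmt1 stays between -0.41 and 0.30; values of Tet2 and Tet3 rest on few UMIs.

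LBPXRS cells were split by the same kind of marker. Zfp42-positive cells (2279 of 2621) had Tet1 at 120 CPM (113.7 to 126.5) against 81.3 CPM (68.3 to 96.0) and Dnmt3l at 13.95 CPM (11.9 to 16.3) against 8.77 CPM (4.91 to 14.5). Gata2-positive cells (226), Gata2 being listed as a trophoblast marker, had Tet2 at 14.2 CPM (8.09 to 23.0) against 28.6 CPM (25.7 to 31.8) and Tet1 at 86.7 CPM (70.4 to 105.7) against 118 CPM (111.5 to 123.9). These cells are not named by Gata2 alone, as cluster 3, led by Gata2, had 1 of 10 trophoblast markers raised. Of that list, Cdx2 had 1 UMI in LBPXRS and 2057 in LB. Gata3 and Ascl2 went the other way, with 400 and 646 UMIs against 238 and 152 in LB. Cells with Sparc, listed as a primitive endoderm marker (2249 of 2621), had Dnmt1 at 55.9 CPM (51.7 to 60.5) against 34.9 CPM (27.0 to 44.5). That is a ratio of 1.60 (1.24 to 2.10), where LB cells split by Sparc (762 positive) gave 1.05 (0.87 to 1.27). Sparc was found in most LBPXRS cells, so this split does not set a primitive endoderm class apart. T, Mixl1, Mesp1, Hand1 and Cdx2 were found in too few LBPXRS cells to be used, between 0 and 7 each.

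Within LB, Klf4-positive cells (238, against 1495 negative) had Tet2 at 18.5 CPM (11.6 to 28.0) against 4.55 CPM (3.15 to 6.36), the 1 member of 7 past 2-fold higher, where 2.08% of 7582 genes were, and Dnmt3b at 48.7 CPM (37.0 to 63.0) against 123 CPM (115 to 131), the 1 member past 2-fold lower, where 5.54% were. Matched for this marker, the libraries still differed in the Dnmt3 genes. Among Klf4-positive cells (238 LB, 1510 LBPXRS) Dnmt3b was 48.7 CPM in LB and 5.56 CPM in LBPXRS, 8.76-fold higher in LB (5.79 to 13.4). Dnmt3l was 44.5 and 13.5 CPM, 3.30-fold higher (2.32 to 4.64), and Dnmt3a 18.5 and 6.36 CPM, 2.91-fold higher (1.67 to 4.91). For Dnmt3b and Dnmt3a the ratio was smaller than over all cells, and for Dnmt3l it was larger. Tet1 in Klf4-positive cells was 96.6 and 125 CPM, 1.29-fold higher in LBPXRS (1.06 to 1.58), and Tet2 18.5 and 29.7 CPM, 1.60-fold higher (1.03 to 2.61). The size of the Tet2 difference went with the marker used for matching: it was 1.52-fold in Esrrb-positive cells (0.873 to 2.84), 2.44-fold in Zfp42-positive cells (1.81 to 3.34), 2.73-fold for Nanog (1.81 to 4.28), 2.87-fold for Utf1 (2.02 to 4.14) and 7.09-fold for Lin28a (3.61 to 14.97). Among Esrrb-positive cells (176 and 647) Dnmt3b was 10.4-fold (5.98 to 18.9) and Dnmt3l 6.30-fold higher in LB (3.87 to 10.4). Dnmt3a was 2.10-fold higher there, with an interval that includes unity (0.942 to 4.47), while Tet1 was 109 and 108 CPM, a ratio of 0.99 (0.789 to 1.26).

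Sorting cells by how many of the 4 naive markers they held, a description chosen after seeing the data, set the members apart. In LB, Dnmt3l was 7.496, 40.4, 46.9, 51.1 and 91.7 CPM in cells with 0, 1, 2, 3 and 4 markers (667, 555, 350, 137 and 24 cells), and Tet1 was 23.1, 70.3, 112, 107 and 117 CPM. Dnmt3b ran the other way, at 142, 124, 69.1 and 49.6 CPM with 0 to 3 markers, and the 24 cells with all 4 gave 6 UMIs. LBPXRS cells with the same numbers of markers (86, 489, 981, 872 and 193 cells) had Dnmt3l between 9.33 and 13.9 CPM and Dnmt3b between 0 and 6.73 CPM throughout. Tet1 was close in the libraries from 2 markers on, at 113, 128 and 126 CPM in LBPXRS. Tet2 in LB was 1.20, 4.32, 13.1, 17.5 and 41.7 CPM, the last from 5 UMIs (13.5 to 97.2), and in LBPXRS 20.9, 23.3, 26.5, 29.1 and 37.3 CPM. At each number of markers the Dnmt3b interval of LB lay above that of LBPXRS.

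**Figure D4:**
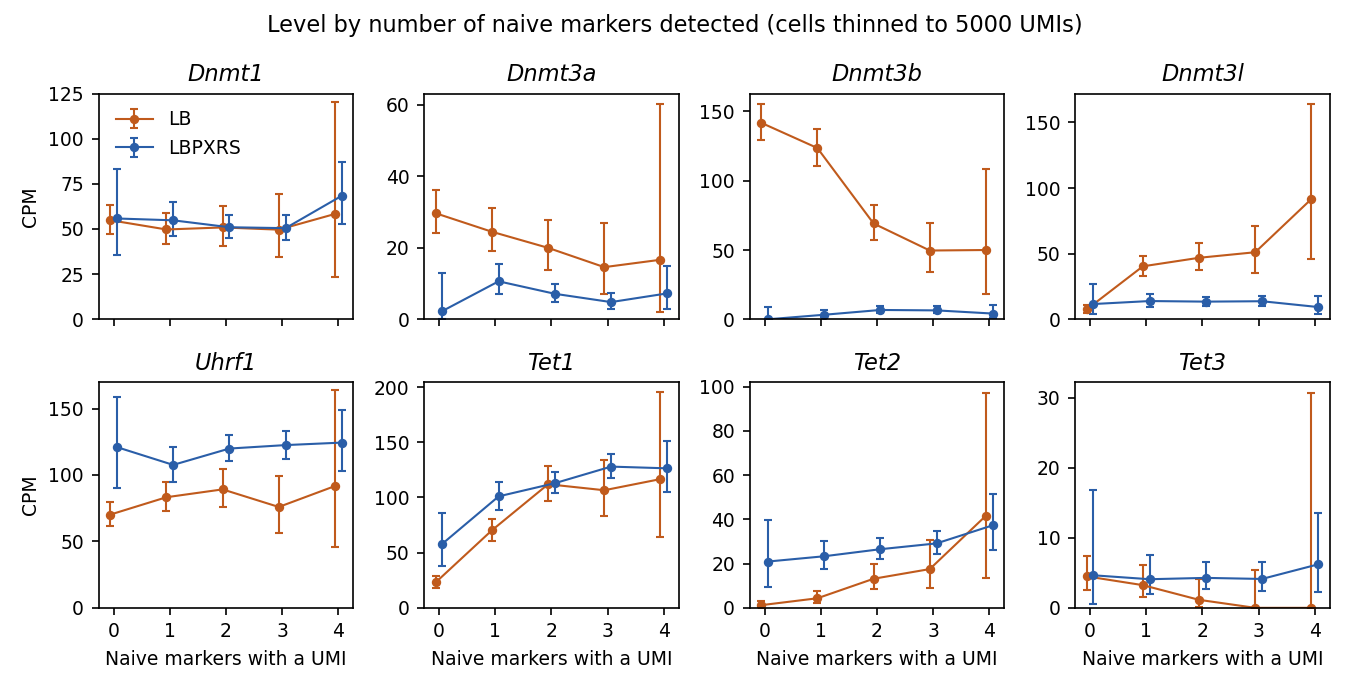
CPM of each gene (1 panel each, own linear axis from 0) against the number of the 4 naive markers found in a cell, for LB and LBPXRS cells thinned to 5000 UMIs; bars are exact 95% Poisson intervals. Dnmt3b runs from 142 CPM at 0 markers to 49.6 CPM at 3 in LB and stays at 6.73 CPM or less in LBPXRS, whereas the Tet1 points of the libraries lie close together from 2 markers on.

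Pairs of members were compared in single thinned cells. In LB, Tet1 was found in 40.9% of the 203 cells with a Dnmt3l UMI (34.1 to 48.0) and in 22.7% of those without (20.7 to 24.9). Dnmt3b was found in 40.5% of the 185 cells with Dnmt3a (33.4 to 48.0) and in 28.7% of those without (26.5 to 31.1). Dnmt3b and its cofactor Dnmt3l showed no such difference, at 32.5% (26.1 to 39.4) and 29.7% (27.4 to 32.03) of cells with and without Dnmt3l. In LBPXRS, Uhrf1 was found in 56.4% of the 156 cells with Dnmt3l (48.2 to 64.3) and 42.3% of those without (40.4 to 44.3). Cells of different classes and cycle phases were pooled here, and their part in these shares was not tested.

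Level by cell cycle was read from the share of a cell's UMIs in 23 S phase genes, none of them a member, with the cells of a library ranked into 4 groups of equal size. From the lowest to the highest group of LB cells, Uhrf1 went from 53.7 to 116 CPM (2.15-fold) and Dnmt1 from 39.2 to 58.4 CPM (1.49-fold). In LBPXRS the same groups gave Uhrf1 at 95.2 and 140 CPM (1.47-fold) and Dnmt1 at 40.5 and 56.9 CPM (1.41-fold). Both maintenance genes were thus higher in cells with more S phase transcripts in either library. Dnmt3l was 8.80 and 20.7 CPM in LBPXRS (2.35-fold) and 25.6 and 36.8 CPM in LB (1.44-fold). Tet1 differed little, with ratios of 0.93 in LB and 1.06 in LBPXRS. Dnmt3b was 70.1 and 144 CPM in LB (2.06-fold), where the score was not separated from cell class. Ranked by 20 G2/M genes, the highest over the lowest LB group gave 0.98 for Dnmt1, 0.80 for Uhrf1 and 2.44 for Dnmt3b. In LBPXRS that ranking gave 1.28 for Dnmt1 and 1.11 for Uhrf1. LB cells with Ccne2, a G1/S marker (87 positive), were also set against negative cells. Their ratios were 0.97 for Dnmt1 (0.602 to 1.49), 1.36 for Uhrf1 (0.989 to 1.84) and 0.68 for Dnmt3b (0.470 to 0.960). Over whole libraries 19 of the 23 S phase genes were lower in LBPXRS by sign, against 7316 of all 12618 genes, with a median log2 ratio of -0.24 against -0.14. Of the 22 at 10 CPM, 1 was past 2-fold lower (Rrm1), where 10.4% of all genes were.

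Genes most like each member over the 13 clusters were ranked by Pearson's r of log2(CPM + 1), as a description over clusters that share libraries and differ in depth. Nr2f6 (r = 0.969), Fam169a and Egr1 came first for Dnmt3b, Mafg (0.968), Lgr4 and Ankrd49 for Dnmt3a, and Mylpf (0.907), Uri1 and Zfp990 for Dnmt3l. Helb (0.985), Akap1 and Dock6 led for Tet1, and Gm49504 (0.945), Parp1 and Zbtb7a for Tet2. Nsf (0.932) and Dtymk were among the first 3 for Uhrf1, and the first were, for Dnmt1, Zfp672 (0.854), Ipo7 and Pwwp3a, and for Tet3 Josd1 (0.939), Slc35b2 and Tnrc6a. Over the 8 LB clusters alone, Uri1 (0.984) and Zfp990 (0.964) were again among the first 3 for Dnmt3l, with Tuba3a, and Helb (0.995) for Tet1, with Sod1 and Kank3. Mtcl1, Zic5 and Tmem238 led for Dnmt3b there, and Atpif1, Nr5a2 and Kdm5b for Tet2. Among member pairs over the 13 clusters Tet1 and Tet2 had r = 0.84, Dnmt3a and Tet3 0.75, Dnmt3a and Dnmt3b 0.69, Dnmt1 and Dnmt3l 0.66, and Dnmt3b and Dnmt3l 0.11. The 13 include LB cluster 6 and LBPXRS cluster 4, of low depth, where Dnmt3a, Tet2 and Tet3 each had 0 UMIs. The part of these shared zeros in the r values was not tested.

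Other genes of the pathway were listed by role. The 9 maintenance partners, which include Pcna, the replication clamp, had 3 genes higher and 6 lower by sign and a median log2 ratio of -0.18, against 5302 higher, 7316 lower and -0.14 over all 12618 genes. Their 1 gene past 2-fold, of 8 at 10 CPM, was Cdca7l, at 21.6 CPM in LB and 8.86 CPM in LBPXRS. That is 1 lower and 0 higher, where 10.4% and 7.98% of all genes were. Hells, a chromatin remodeller needed for full methylation, stood at 213 and 215 CPM in LB and LBPXRS. Recruiters and chromatin partners (6 of 15 higher, median -0.16) had Zfp57, which protects methylation at imprinted loci, at 44.7 CPM (42.8 to 46.7) and 133 CPM (130 to 136) and Nsd2, a histone H3 lysine 36 methyltransferase, at 20.1 and 8.08 CPM past 2-fold. Trim28, the partner of Zfp57, was 326 and 332 CPM. Zfp57 was thus apart from most of its list. Of the list's 14 genes at 10 CPM, 1 was past 2-fold higher and 1 lower, where 7.98% and 10.4% of all genes were. The methyl-CpG readers had 5 of 10 genes higher, none of 4 at 10 CPM past 2-fold and a median of -0.05.

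Regulators of the writers and erasers went both ways, with 5 of 13 measured genes higher and a median of -0.50. Over all 12618 genes, 5302 were higher, with a median of -0.14. Prdm14, known to repress Dnmt3b and Dnmt3l in naive cells, was 4.70 CPM (4.10 to 5.38) in LB and 10.7 CPM (9.84 to 11.6) in LBPXRS, and Nanog 75.2 and 177 CPM, the 2 genes past 2-fold higher. Dppa3, a known antagonist of UHRF1, was 126 CPM (123 to 130) and 38.9 CPM (37.2 to 40.6), the 1 gene past 2-fold lower. Of 13 regulators at 10 CPM, 2 were thus past 2-fold higher and 1 lower, where 7.98% and 10.4% of all genes were. The base excision genes, which complete removal of oxidised methylcytosine, had 13 of 18 genes higher, against 5302 of 12618, and a median of 0.52. Gadd45a (17.8 and 41.8 CPM), Gadd45g (9.14 and 25.5 CPM) and the glycosylase gene Neil2 (5.25 and 12.1 CPM) were past 2-fold higher. Of 14 base excision genes at 10 CPM, 3 were thus higher and 0 lower past 2-fold, where 7.98% and 10.4% of all genes were. Tdg, whose glycosylase excises the products of TET oxidation, was lower, at 55.4 CPM (53.3 to 57.6) and 30.3 CPM (28.8 to 31.9), under the 2-fold rule. The gene that acts directly on TET products thus did not go with its list.

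Genes for the methyl donor and the TET cofactor had 10 of 24 higher and a median of -0.12. Mat2a, which makes S-adenosylmethionine, was 114 CPM (111 to 117) in LB and 53.4 CPM (51.4 to 55.4) in LBPXRS, and Idh2, which makes the TET substrate alpha-ketoglutarate, 45.9 CPM (43.9 to 47.9) and 161 CPM (157 to 164). Got1 was 52.4 and 117 CPM, also past 2-fold. Of this list's 20 genes at 10 CPM, 2 were past 2-fold higher and 1 lower, where 7.98% and 10.4% of all genes were. Germline genes with CpG-rich start regions, known targets of silencing by methylation, had 15 of 17 measured genes higher by sign and a median of 0.67, where 5302 of all 12618 genes were higher. Past 2-fold were 4 genes higher, Dazl (2.97 and 30.7 CPM), Hormad1, Rpl10l and Tuba3a, and 2 lower, Sycp3 (24.8 and 7.97 CPM) and Tdrkh, of 10 at that level, where 7.98% and 10.4% of all genes were. With naive-like LB cells alone the germline median was 0.22.

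**Figure D5:**
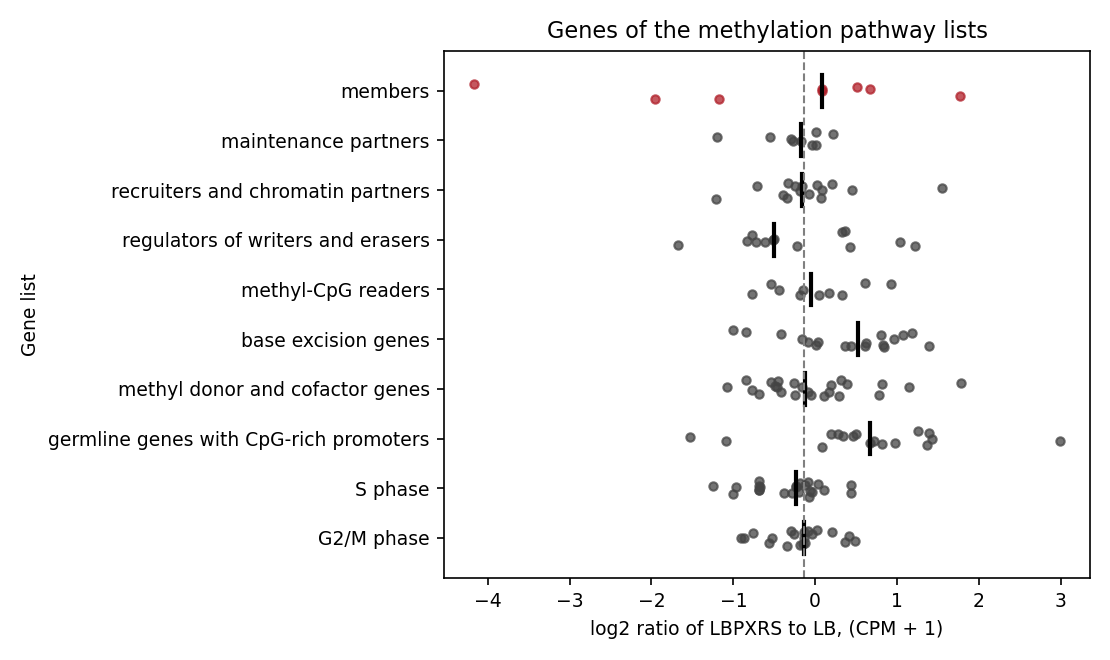
Log2 ratio of LBPXRS to LB of each gene (points) with a mean of at least 1 CPM, by list, with the list's median as a black bar and the median of all 12618 genes, -0.14, as a dashed line. The members (red) span -4.17 to 1.77, wider than any other list shown, and the base excision and germline medians lie at 0.52 and 0.67.

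The counting strand was not given in the sources used here, and 5 members overlap a gene on the opposite strand. Those partners had 0 and 0 UMIs in LB and LBPXRS (Dnmt3aos, at Dnmt3a), 12 and 1 (Dnmt3bos, at Dnmt3b), 396 and 130 (Aire, at Dnmt3l), 5 and 13 (Gm42567, at Tet2) and 0 and 1 (B230319C09Rik, at Tet3). Should strand have been ignored, reads of Dnmt3l and Aire could not be told apart where they overlap. Within LB the Tet2 values of clusters 2, 3, 4 and 7 rest on 1 to 18 UMIs each. Their Poisson intervals overlap, and no order among those clusters is given.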

How the data were processed

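The authors deposited 1 matrix of UMI counts per library, with genes and barcodes; per the file headers and the submitters' processing notes Cell Ranger 4.0.0 made these counts, and per those notes the build was mm10. Libraries were 10x 3′ version 2, per the labels' protocols. The annotation and cell calling settings are not given in the sources used here. Barcodes with under 1000 genes or over 10% mitochondrial UMIs were left out (225 LB, 406 LBPXRS). Counts were summed per library and scaled to CPM. With 1 library a condition no test was made: ratios have exact conditional, levels Poisson and shares Clopper-Pearson intervals (95%). Calls used a 2-fold size and 10 CPM, and list medians a mean of 1 CPM. On simulated counts for this comparison (7015 genes, counting noise only) the rule called 200 of 200 genes changed 3-fold and 0 of 6815 unchanged ones.

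Clusters (scanpy 1.11.5, Leiden resolution 0.5, 2000 variable genes without the 8 members) were named by markers: at least 3 raised, their class median log2 ratio at least 1, and none shallower than the library median divided by 3 unless led by markers. Scrublet marked 18 LB (1.01%) and 10 LBPXRS cells (0.370%), so few that doublets may have been missed, and marked cells were kept. A marker needed 50 positive cells. TMM used edgeR 4.0.16 and size factors DESeq2 1.42.0. Named genes were the 8 members, listed pathway genes, class markers and the 3 genes most like each member. Of the genes this rule names, 2 are not reported here. Members, lists and tests were chosen with earlier results of these data known. Sequences are from RefSeq and positions from GENCODE on GRCm38, to which all 8 identifiers matched.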

Additional observations from a re-analysis of the deposited data

How the results depend on the processing

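The count of members at least 2-fold lower in LBPXRS was 3 in all 13 alternatives, and log2 ratios ranged from -4.38 to -3.06 for Dnmt3b, from -2.11 to -1.19 for Dnmt3a and from -2.33 to -1.004 for Dnmt3l. The count at least 2-fold higher was 0 in place of 1 with naive pluripotent-like LB cells alone, with Klf4-positive LB cells alone, with Esrrb-positive cells of both libraries, and with cells of both libraries that held at least 3 of 4 naive markers, an alternative chosen after seeing the data. In those 4 settings Tet2 stood at log2 ratios of 0.83, 0.79, 0.77 and 0.69; they use fewer cells, 661 LB cells for the first and 161 LB against 1065 LBPXRS cells for the last. Tet1 changed sign, to -0.16 and -0.22, with naive-like LB cells and with Esrrb-positive cells, and Dnmt1 to -0.03 with Esrrb-positive cells; the cause was not tested. The members' median of 0.08 was -0.03 and -0.12 in the same 2 settings. Genes at least 2-fold lower over the whole table numbered 503, 461, 472 and 393 in the 4 settings above, against 794. Leaving out LBPXRS cluster 4 left the counts at 3 and 1. No paired analysis was possible because each condition has 1 library. Tet2 and Tet3 in LB, at 303 and 169 UMIs, limit what can be said within its clusters.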
